A study of Mus musculus with 9 samples.

Results

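The gene expression profile of retinal endothelial cells was read on design C, the least annotated of the 3 complementary designs (A, B and C) of the Affymetrix MG-U74v2 oligonucleotide array set, and described across genes. The 3 design C arrays are 3 of the 9 arrays of the study. All 11868 probe sets of the design were ranked within each array, and the 7717 that carry exactly 1 gene symbol represent 5926 genes, out of 15944 genes named on the whole array set. Of the 5926 genes, 2238 (37.8%) have no probe set on design A or B, and they are called design-C-only genes here. The other 3688 genes are also measured on design A or B.

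All 3 arrays carry RNA of 1 condition. GFP-positive cells, labelled as endothelial, were sorted by flow cytometry from retinas of homozygous Tie2-GFP transgenic mice on postnatal day 8, after intraperitoneal injections, from postnatal day 0 to 7, of the antibody APB5, which neutralizes PDGFRb, a receptor for platelet-derived growth factor. Every array of the study carries this treatment, so no untreated group was compared. GFP follows the Tie2 promoter, which is active in endothelium and in some blood cells, and the retinas of several animals were pooled. Whether each replicate had its own pool is not stated in the labels, so each SD, SE and p-value measures the spread between these arrays, which may be technical.

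Endothelial cells line the blood vessels, and in the retina they form the inner blood-retina barrier, a sheet sealed by tight junctions and fed by dedicated transporters. Platelet-derived growth factor from endothelial cells recruits pericytes, the mural cells of capillaries, through PDGFRb, and an antibody against this receptor keeps pericytes off the growing retinal vessels. Design C was built largely from expressed sequence tags, partial transcript sequences of genes that often had no name at the time, so its ranking shows a side of the profile for which few gene lists exist.

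The deposited values are linear intensities, and their array medians were 32.7, 32.9 and 32.3. The log2 intensities of the 3 arrays correlated pairwise with r between 0.981 and 0.984 across probe sets, which are not independent replicates. The position of a probe set is its percentile, from 0 to 100, among all probe sets of its array, averaged over the 3 arrays, and a gene takes the mean of its probe sets. Positions are given as mean ± SD (n = 3 arrays). The median SD of a position was 3.43 percentile points between the 20th and 40th percentile and 0.303 above the 95th. The median SD of log2 intensity was 0.141 and 0.167 in these ranges. The smaller SD of high positions is therefore not a smaller spread of intensity. Probes differ in how well they hybridise, so a position orders probe sets as well as transcripts, and an order by position is not an order of transcript levels.

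A probe set was called above the array median when its log2 intensity, relative to the median of its array, exceeded 1 (2-fold) in limma's treat test with a Benjamini-Hochberg adjusted p under 0.05. Of the 11868 probe sets, 2475 (20.9%) were called above and 2207 (18.6%) below. With 50 added to each intensity before the logarithm, 1122 were called above and 0 below, also at an unadjusted p under 0.05 by limma, since that offset leaves no room for a 2-fold drop below the median. Among probe sets above the 40th percentile of every array, set against the median of those kept, the counts were 1127 and 2. Calls above made up 99.8% of all calls there against 52.9% in the whole table, since this filter removes the low values by construction. Among the 5926 genes, 1635 (27.6%) had at least 1 probe set called above and 1315 (22.2%) at least 1 called below.

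The endothelial label was checked first. Of 85 genes on a pan-endothelial marker list, 24 are on design C, and 11 of them were called above the array median against 27.6% of all genes, while 5 were called below against 22.2%. The count above was 9 of 24 with 50 added to each intensity, 9 of 20 among probe sets above the 40th percentile and 5 of 13 with plain probe sets only. Over all probe sets the shares called above in these settings were 9.45%, 16.8% and 17.5%. These are shares of probe sets, whereas the list counts genes with at least 1 probe set called. In the main setting the share was 20.9% of probe sets but 27.6% of genes. Over design-C-only genes the shares in these settings were 10.3%, 16.8% and 20.2%. The median position of the 24 genes was 75.6, against 52.1 for all genes of the design. Flt1, a receptor for vascular endothelial growth factor, was among the brightest probe sets of the design, with intensities of 1978, 2542 and 2296, and its positions were 96.1 (design A) and 98.3 (design B). Sox17, a transcription factor of arterial endothelium, reached a position of 99.4, the adhesion receptor Adgrl4 99.1, the thrombospondin-domain protein Thsd1 97.7, Exoc3l2 95.8 and the junctional receptor Heg1 83.7, all called above. Not all defining markers were high on these probe sets. The probe set of Kdr, the main receptor for vascular endothelial growth factor, gave 31.5, 32.0 and 33.5 at position 49.6, whereas the gene lay at 99.3 on design A. Sox18 was at 9.71 here against 87.7 on design A, and Arap3 at 5.49 and 36.1.

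Of the 24 pan-endothelial genes, 6 are design-C-only, and 5 of the 6 were called above the array median. The share over all design-C-only genes was 23.1%. With 50 added to each intensity 4 were called above (10.3% of all design-C-only genes), and with plain probe sets only 2 were (20.2%). The calls of Tmem100, Gpihbp1 and Grrp1 rest on probe sets with a flagged name ending (_f_at or _r_at, described below). Nostrin, which binds endothelial nitric oxide synthase and moves it between the plasma membrane and vesicles, had intensities of 1056, 893 and 827 and a position of 99.5 ± 0.134. Its log2 intensity lay 4.82 ± 0.091 (SE, n = 3) above the array median, with a limma adjusted p of 2.90e-06. Its lowest replicate exceeded the 99th percentile of every array, which lay between 602 and 691. Apold1, an early-response gene of vascular endothelium, gave 275, 275 and 265, the narrowest relative spread of the 6, at position 95.7 ± 0.673 and 3.06 ± 0.068 log2 units above the median. Tmem100, a membrane protein needed for the differentiation of arterial endothelium, gave 214, 182 and 194 at 93.3 ± 0.0598. Gpihbp1, which carries lipoprotein lipase across capillary endothelium, gave 88.5, 86.5 and 81.4 at 81.5 ± 1.06, 1.39 ± 0.07 log2 units above the median.

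The other 2 genes of this group show how probe sets of a gene can part. Grrp1, a small glycine- and arginine-rich protein, has 3 probe sets, at positions 51.4, 35.2 and 95.8, and only the last, with intensities of 323, 281 and 245, was called above. Egfl7, a secreted protein that endothelial cells deposit in the vessel wall, has 2 probe sets, with intensities of 13.1, 9.33 and 17.2 on one and 28.1, 25.9 and 28.2 on the other. Neither was called, and the gene lay at 30.5 ± 4.60. No replicate of either Egfl7 probe set reached its array's median.

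RefSeq promoters (build GRCm38.p6) are shown for those of the 5 called genes that have exactly 1 entry in the promoter table, namely Nostrin, Apold1 and Grrp1, because ETS factors, a family of transcription factors that includes the endothelial regulators Erg and Fli1, bind a short core that can be counted in them. Each sequence is the 250 bases before the transcript start, 5′ to 3′ on the gene's strand. Capitals mark every GGAA and every TTCC, the ETS core on either strand. The Nostrin window is chr2:69135550-69135799 on the plus strand, the Apold1 window chr6:134981751-134982000 on the plus strand, and the Grrp1 window chr4:134254107-134254356 on the minus strand, inside the annotated span of the gene.
Nostrin: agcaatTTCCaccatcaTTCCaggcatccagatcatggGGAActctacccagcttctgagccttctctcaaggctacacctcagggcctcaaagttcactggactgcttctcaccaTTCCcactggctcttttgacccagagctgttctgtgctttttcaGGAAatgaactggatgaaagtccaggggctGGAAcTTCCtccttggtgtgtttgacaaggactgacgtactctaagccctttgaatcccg
Apold1: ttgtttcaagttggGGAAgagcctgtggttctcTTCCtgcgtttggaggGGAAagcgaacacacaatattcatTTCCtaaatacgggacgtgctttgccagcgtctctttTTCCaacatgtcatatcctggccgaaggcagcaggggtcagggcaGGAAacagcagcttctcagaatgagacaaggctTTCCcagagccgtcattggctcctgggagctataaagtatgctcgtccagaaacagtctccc
Grrp1: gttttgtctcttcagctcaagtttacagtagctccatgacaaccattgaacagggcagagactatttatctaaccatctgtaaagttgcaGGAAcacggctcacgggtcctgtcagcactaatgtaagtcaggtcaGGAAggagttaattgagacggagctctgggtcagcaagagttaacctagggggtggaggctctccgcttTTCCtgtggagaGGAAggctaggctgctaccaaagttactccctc
The cores are spread over the Nostrin and Apold1 windows, which hold 7 each, 3 as GGAA and 4 as TTCC. At least as many are found in 3.82% of the 32851 promoter windows counted. The Grrp1 window holds 4, as 33.4% of windows do at least. A core of this length is common, with a median of 3 per window and at least 1 in 93.4% of windows, and a match describes the letters and not a bound factor.

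The 30 highest design-C-only genes lay between positions 97.6 and 99.8, with intensities from 337 to 2092 in single replicates. Of the 30, 28 are protein-coding and 2 are long noncoding RNAs (lncRNAs), and they rank between 11 and 142 among all 5926 genes of the design. Each rests on 1 probe set. They were chosen by their positions, so that all 30 were also called above is a property of the choice. The order within the 30 is not resolved, since 28 of the 29 neighbouring pairs overlapped in the range of their replicate positions. The choice itself is stable to single arrays, as 30, 28 and 30 of the 30 stayed without replicate 1, 2 and 3. Gene 30 lay at 97.56 and gene 31 at 97.49.

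**Figure D1:**
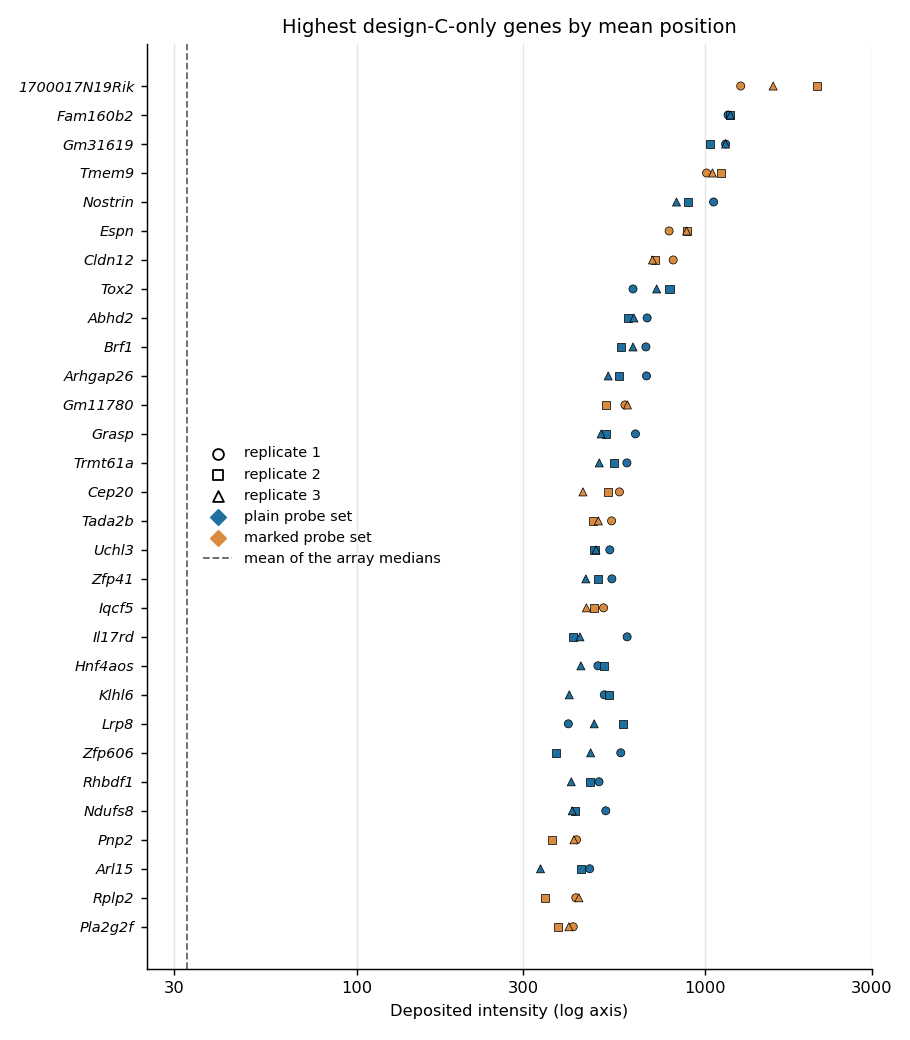
Deposited intensity (log axis) of the 30 highest design-C-only genes in each of the 3 replicates (circle, square and triangle), from the highest mean position at the top. Blue symbols are plain probe sets and orange symbols are marked ones, and the dashed line is the mean of the array medians. Every replicate of every gene lies at 337 or above.

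Several of the 30 act at the membrane or on the cytoskeleton. Besides Nostrin, Cldn12, a claudin of tight junctions, gave 809, 716 and 705. Tmem9, a protein of lysosomal membranes, gave 1008, 1111 and 1048, and espin (Espn), which bundles actin in microvilli and stereocilia, gave 787, 883 and 883. Arhgap26, a GTPase-activating protein found at focal adhesions, gave 678, 565 and 527, and Arl15, a small GTPase of the ARF type, gave 466, 440.1 and 337. The replicates of these genes lay close together, and those of Arl15 lay widest apart. Grasp, a scaffold that couples receptors to ARF exchange factors, gave 630.2, 519 and 503.

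Receptors and regulators of signalling form another group among the 30. Il17rd, also known as Sef and a brake on fibroblast growth factor signalling, gave 597, 416 and 437, with replicate 1 above the others. Lrp8, a receptor for reelin and apolipoprotein E, gave 405, 579.7 and 480.0, with replicate 1 lowest. Rhbdf1, an inactive rhomboid that brings the sheddase TACE to the cell surface, gave 495, 468 and 413. Klhl6, a substrate adaptor of a cullin ubiquitin ligase known from B cells, gave 513, 529 and 407, and the ubiquitin hydrolase Uchl3 gave 532, 481 and 486. The lipid enzymes were Abhd2, a serine hydrolase of monoacylglycerol, at 681, 599.9 and 624, and the secreted phospholipase Pla2g2f at 418, 378 and 406.

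Other genes of the 30 act in the nucleus or in RNA and energy metabolism. Tox2, a transcription factor with an HMG box, gave 620.2, 789 and 725. Brf1, a subunit of the initiation factor of RNA polymerase III, gave 675, 572 and 620.2, and Trmt61a, the catalytic subunit of a tRNA methyltransferase, gave 596, 549 and 496. Tada2b, an adaptor of the SAGA histone acetyltransferase, gave 538, 477 and 493, and the zinc finger genes Zfp41 and Zfp606 gave 539, 492 and 454, and 572, 372 and 469. Zfp606 had one of the wider spreads of the 30. In metabolism, Ndufs8, an iron-sulfur subunit of respiratory complex I, gave 518, 424 and 415 and Pnp2, a purine nucleoside phosphorylase, 427, 363 and 419.7. The ribosomal stalk protein Rplp2 gave 425, 347 and 434. Pnp2 and Rplp2 have near-identical copies in the genome (Pnp, and processed pseudogenes), so their signal is uncertain as to source.

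The remaining genes have little known function in endothelium. The highest of all, the RIKEN-named coding gene 1700017N19Rik, gave 1263, 2092 and 1565 on a marked probe set. Fam160b2, a gene of the family of FHF-complex-interacting proteins, followed with 1162, 1179 and 1181, nearly equal on the 3 arrays. The lncRNA Gm31619 gave 1144, 1034 and 1143 and the lncRNA Hnf4aos, which lies opposite to the liver factor gene Hnf4a, gave 492, 513 and 439.6. Gm11780 gave 588, 520.3 and 598, the centriolar protein gene Cep20 567, 527 and 446, and Iqcf5, a gene with a calmodulin-binding motif known from testis, 511, 479 and 456.

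Probe set names ending in _s_at, _f_at, _i_at, _r_at or _g_at mark sets that Affymetrix flagged as shared between similar transcripts or family members, as incomplete, or as picked with relaxed rules, and 4380 of the 11868 sets (36.9%) are marked in this way. The others are plain. Of the 30 genes, 19 rest on a plain probe set and 11 on a marked one, among them 1700017N19Rik, Tmem9, Espn and Cldn12. Marked sets made up 84 of the 100 highest probe sets (42 _f_at, 29 _r_at, 11 _i_at and 2 _s_at) and 56.7% of the highest 1000. Of those 100, 81 carry 1 symbol, 3 several and 16 none, and only 12 belong to design-C-only genes. The share called above was 37.2% of _f_at sets, 29.5% of _s_at, 25.4% of _r_at, 19.4% of the 31 _g_at sets and 14.0% of _i_at, against 18.4% of plain sets.

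**Figure D2:**
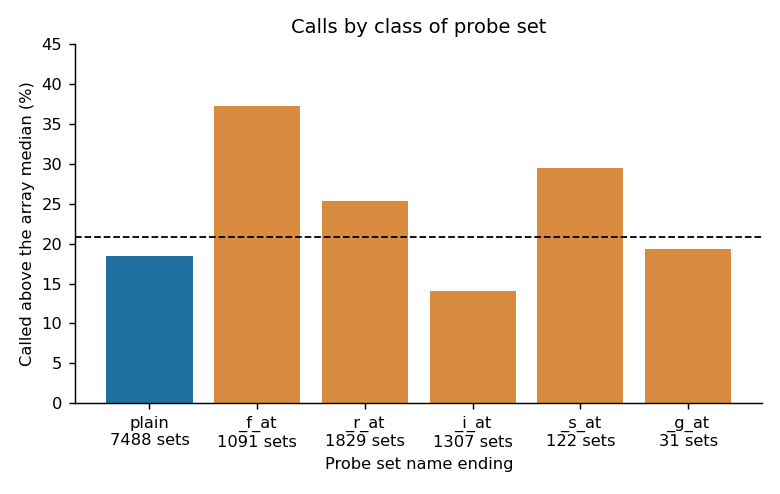
Share of probe sets called above the array median (percent, limma treat, adjusted p under 0.05) by the ending of the probe set name, with the number of sets in each class. The dashed line is the share over all 11868 probe sets, 20.9%. The _f_at class stands highest at 37.2% and the _i_at class lowest at 14.0%, and the plain class lies at 18.4%.

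Because a gene takes the mean of its probe sets, a bright probe set can be averaged away. Among the 30 highest single probe sets of design-C-only genes, 13 belong to genes outside the 30. They include the anti-Muellerian hormone receptor Amhr2 (1347, 1624 and 1586 on 1 of its 4 probe sets), the potassium channel Kcnq5 (791, 1015 and 1062), the TORC2-binding protein Prr5l (742, 618 and 546), the tubulin polyglutamylase Ttll4 (631, 577 and 617) and the phosphatidylinositol transfer protein Pitpnm2 (701, 524 and 525). Foxj3, a forkhead factor, had both its probe sets called above, with 1174, 1191 and 1102 on one and 237, 197 and 184 on the other. Disagreement of this kind was common. Of the 450 design-C-only genes with several probe sets, the lowest and highest lay a median of 29.1 points apart, and over 50 points apart in 109 genes. Some but not all probe sets were called above in 143 of the 450, and all in 21.

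Across all its members, the design-C-only group lay lower in the ranking than the genes also measured on design A or B. The median position was 49.7 for the 2238 design-C-only genes and 53.8 for the other 3688. The difference was -3.79, -4.39 and -4.07 points on the 3 arrays, a mean of -4.08 ± 0.30 (SD, n = 3), the same direction on each. At least 1 probe set was called above in 516 (23.1%) of the design-C-only genes and in 1119 (30.3%) of the others, around the 27.6% of all genes. Positions over 95 were reached by 81 (3.62%) and 206 (5.59%) genes. These are descriptions over genes, with no test.

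The makeup of the 2 groups differs as well. Marked sets made up 35.9% of the probe sets of design-C-only genes and 47.0% of those of the other genes. With plain probe sets only, the difference in median position shrank to -1.35 points, and with probe sets above the 40th percentile of every array to -2.70. With the highest probe set of each gene it widened to -6.05. Among genes with a single, plain probe set, 259 of 1297 design-C-only genes (20%) and 373 of 1586 others (23.5%) were called above, with median positions of 53.9 and 56.7.

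The kind of gene moved with the position inside the group. Of the 2238 design-C-only genes, 1681 are protein-coding, 510 are lncRNAs and 47 are of other types, mostly pseudogenes. The coding genes were called above in 434 cases (25.8%) with a median position of 51.6, the lncRNAs in 77 (15.1%) with a median of 44.5, and the others in 5 of 47 (10.6%) with a median of 35.6. Over genes with a single plain probe set the shares were 202 of 903 coding genes (22.4%) and 52 of 365 lncRNAs (14.2%). The lncRNAs with the highest positions after Gm31619 and Hnf4aos among those named by rule were D330041H03Rik (373, 279 and 367) and 2610307P16Rik (274, 274 and 273). The second of these gave nearly equal values on the 3 arrays. The 4001 probe sets with no symbol had a median position of 46.4, and 661 of them (16.5%) were called above.

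**Figure D3:**
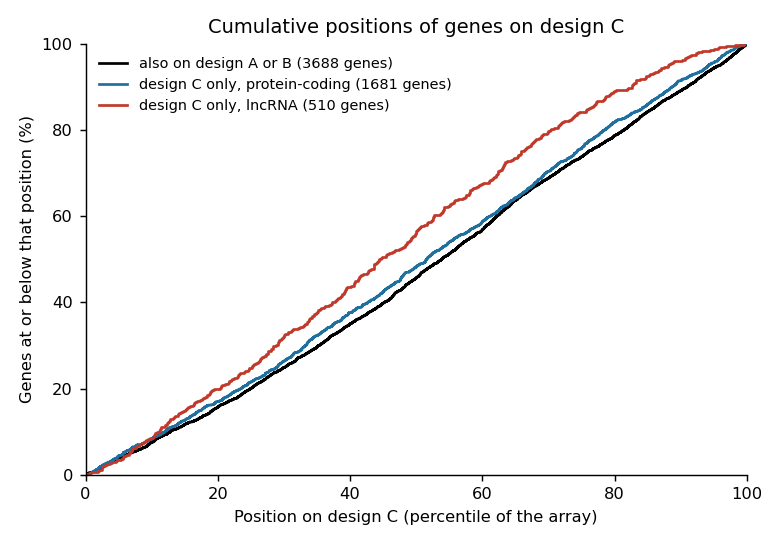
Cumulative share of genes (percent) against position on design C (percentile of the array) for 1681 protein-coding design-C-only genes (blue), 510 design-C-only lncRNAs (red) and 3688 genes also on design A or B (black). A curve further left has lower positions. The lncRNA median lies at 44.5, the coding median at 51.6 and that of the other designs' genes at 53.8.

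Outside the pan-endothelial list, the vascular lists leave few design-C-only genes. Of the blood-retina barrier and Wnt list, 19 of 53 genes are on design C and 8 were called above against 27.6% of all genes, with a median of 55.3. The count was 3 of 19 with 50 added to each intensity and 4 of 13 among probe sets above the 40th percentile. In these settings 9.45% and 16.8% of all probe sets were called above, which are shares of probe sets and not of genes. The list's 2 design-C-only genes are transporters of brain and retinal endothelium. Slco1c1, which carries thyroid hormone, had intensities of 92.1, 193 and 163 on a probe set called above, with replicate 1 lowest, and 12.5, 22.5 and 18.9 on another that was not. Slc19a3, the thiamine transporter, gave 96.8, 81.0 and 68.5 on a probe set called above (limma adjusted p = 0.0373) and 14.6, 11.8 and 10.4 on another called below. The call above was lost without replicate 1 (adjusted p = 0.158) or replicate 2 (0.0887), and the call below without replicate 3 (0.059). Of the genes on other designs, the forkhead factor Foxq1 lay at 98.9 ± 0.589. The tip cell and sprouting list has 8 of 35 genes on the design, none of them design-C-only. Of the 8, 2 (25%) were called above, near the 27.6% of all genes. These were the basement membrane genes Col4a2 at 99.8 and Lama4 at 97.0.

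None of the 8 mural cell genes on design C was called above, against 27.6% of all genes. By limma none passed at an adjusted or an unadjusted p under 0.05. Of the 8, 1 had a probe set called below, against 22.2% of all genes. Their median position was 35.3, near the 35.8 of genes known from unrelated tissues. Without the 2-fold margin 1 of the 8 was called above. Of the 8, 5 are design-C-only. The pericyte ATPase gene Atp13a5 lay highest of these at 53.6 ± 3.18 (36.9, 32.9 and 37.9), followed by the smooth muscle actin nucleator Lmod1 at 37.8, the phosphodiesterase Pde5a at 32.7, the Notch target Heyl at 25.2 and the T-box factor Tbx18 at 24.0. The summed intensity of the 8 genes was 210 to 222 on the 3 arrays. None of the 5 was at 0, and all but Atp13a5 lay under the 50th percentile on each array. In bulk RNA, fewer cells of a type and less RNA per cell cannot be told apart.

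Markers of other cell types gave single high values. Of 10 microglia and macrophage genes 2 (20%) were called above and 1 below, against 27.6% and 22.2% of all genes. The 2 were the design-C-only Sall1, a zinc finger factor of microglia, at 203, 153 and 167 and Laptm5 at 486, 810.1 and 787. P2ry12, the purine receptor that defines resting microglia, is also design-C-only and gave 4.55, 4.10 and 4.65 at position 2.12 ± 0.319, called below. The probe set of P2ry12 is a marked one and that of Sall1 a plain one. The summed intensity of the 10 genes was 952 on replicate 1, 1219 on replicate 2 and 1222 on replicate 3. Of 8 blood cell and platelet genes 2 (25%) were called above and 1 had a probe set called below, likewise near the shares of all genes. Nkg7, a granule membrane protein of cytotoxic lymphocytes, had 2 of its 3 probe sets called above, at 130.4, 141 and 126 on the brightest. The platelet integrin Itga2b at 59.8, 64.5 and 58.2 and the platelet receptor Clec1b at 25.4, 33.4 and 30.4 were not called. The 8 genes summed to 587 to 621.

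Among retinal genes, 1 of 3 photoreceptor genes was called above, the design-C-only Guca1b, which activates guanylate cyclase in photoreceptors, with 259, 165 and 252. Of 20 genes of inner retinal neurons 6 were called above and 8 had a probe set called below, against 27.6% and 22.2% of all genes. The 6 became 1 of 14 with plain probe sets only, 1 of 20 with 50 added to each intensity and 1 of 16 among probe sets above the 40th percentile. Over all probe sets the shares called above in these settings were 17.5%, 9.45% and 16.8%, again counted by probe set and not by gene. The design-C-only synapsin gene Syn1 gave 78.2, 99.0 and 69.7, a call (limma adjusted p = 0.0382) lost without replicate 1 (0.078) or replicate 2 (0.149). The sodium channel gene Scn2a gave 79.6, 88.5 and 69.2 on a probe set called above and 6.63, 5.78 and 7.60 on one called below. Its call above was lost without replicate 1 (0.102) or replicate 2 (0.145), and without each of these arrays 4 of the 20 genes were called above. The glial genes Sox8 (33.5) and Lhx2 (31.4) were not called, and 2 of 10 glial genes (20%) were called above, against 27.6% of all genes. Of 9 pigment epithelium and lens genes 3 (33.3%) were called above, led by Pmel at 93.0. Of 5 fibroblast genes 1 (20%) was called above, and the design-C-only Itgbl1 at 10.0 was called below.

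Genes known from unrelated tissues (liver, pancreas, testis and others, 20 on design C) gave a scale for these counts. Of the 20, 3 (15%) were called above and their median position was 35.8. The protamine gene Prm1, of sperm chromatin, gave 140.1, 129 and 158 at 90.3 ± 1.06 on a marked probe set. The pancreatic carboxypeptidase Cpa1, design-C-only, gave 21.3, 21.8 and 19.9, and the testis gene Spata16 2.11, 6.53 and 5.74. Whether RNA of other cells has a part in these signals was not tested.

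**Figure D4:**
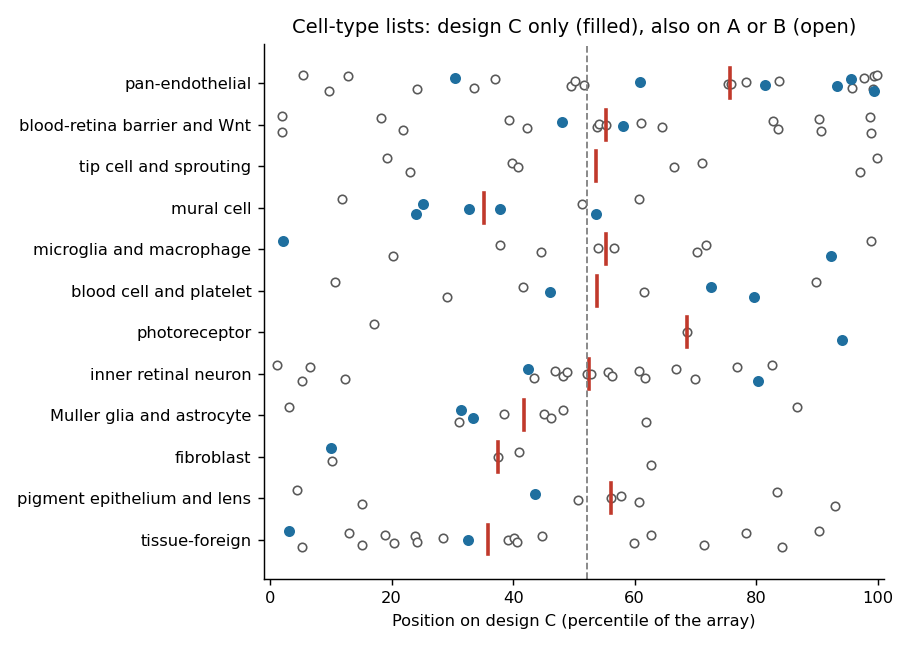
Positions on design C (percentile of the array, mean of 3 arrays) of the genes of 12 marker lists. Filled blue points are design-C-only genes, open points are genes also on design A or B, red bars are list medians, and the dashed line is the median of all genes, 52.1. The pan-endothelial median is 75.6, the mural cell median 35.3 and the median of genes of unrelated tissues 35.8, and every list has points on both sides of the dashed line.

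Families taken by name pattern give the rest of the design-C-only genes by function. Of 37 design-C-only solute carriers 11 (29.7%) were called above and 5 below, against 516 (23.1%) and 506 of all 2238 design-C-only genes. With 50 added to each intensity 2 of the 37 were called above, against 10.3% of all design-C-only genes. Slc35d3, an orphan member of the nucleotide-sugar transporter family, gave 381, 269.6 and 339, the neuronal amino acid transporter Slc6a17 177, 184 and 191, and Slc16a13, of the monocarboxylate family, 104, 106 and 117. The zinc transporter Slc39a12 stood lowest, at 4.54, 4.24 and 4.23. Of 33 design-C-only genes named Tmem, 13 were called above, against 23.1% of all design-C-only genes. Besides Tmem9, they included Tmem25 at 335, 257 and 297 and the ciliary transition zone gene Tmem231 at 241, 237 and 220.0. With 50 added to each intensity 7 of the 33 were called above, against 10.3% of all design-C-only genes. Of all 26 potassium channel genes on the design 7 (26.9%) were called above and 9 had a probe set called below, against 27.6% and 22.2% of all genes. Among the 9 design-C-only ones, 5 had a probe set called above and 3 had one called below. Kcnk10, a leak channel, gave 109, 101 and 103, and the call of Kcnmb4 was lost without any 1 of the arrays, so that without replicate 2 or 3 the count was 3 of 9. With 50 added it was 1 of 9.

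In the adhesion and matrix families, 2 of 6 design-C-only cadherins and protocadherins were called above, against 23.1% of all design-C-only genes, and 2 had a probe set called below. Of all 12 on the design, 2 (16.7%) were called above and 4 below, with a median position of 35.7. Cdh24 was among those called above, at 141, 139 and 136. None of the 13 ADAM and ADAMTS proteases was called above, by limma at an adjusted or an unadjusted p under 0.05 (4 without the 2-fold margin), and 5 had a probe set called below, 4 of them design-C-only. The shares of all genes were 27.6% above and 22.2% below. The highest design-C-only one, Adamts18, lay at 50.2 ± 2.83 and the lowest, Adam24, a testis protease, at 5.73 ± 0.859. Col25a1, a collagen of neurons, had both of its plain probe sets called below (11.9, 9.54 and 10.2, and 10.3, 8.94 and 9.94). Both semaphorin-receptor genes of the group, Plxnb3 and Plxnc1, lay under the median position, at 45.3 and 24.5, and were not called.

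The next families act in the nucleus and in protein turnover. Of 59 design-C-only Zfp genes 21 (35.6%) were called above, and of all 109 Zfp genes 40 (36.7%), against 23.1% of all design-C-only genes and 27.6% of all genes. The 40 became 15 of 109 with 50 added to each intensity and 15 of 74 among probe sets above the 40th percentile. Over all probe sets the share called above was 9.45% and 16.8% in these settings, against 20.9% in the main one. These shares count probe sets and not genes, so they are not a like measure for the family counts. With 50 added, 10 of the 59 design-C-only Zfp genes were called above, against 10.3% of all design-C-only genes. In the family grouped by name as PHD, SET and bromodomain chromatin genes, 17 of 33 (51.5%) were called above. The median position was 72.7, but only 5 of the 33 are design-C-only and 2 of those were called. They were Setd1b, which methylates histone H3 (91.2, 94.7 and 117), and the dioxygenase gene Jmjd4 (211, 178 and 207). Jmjd4 was included by its name pattern alone. Without replicate 1 the family count was 14, without replicate 3 it was 15, and with plain probe sets only it was 12 of 27. With 50 added to each intensity it fell to 4 of 33, and among probe sets above the 40th percentile it was 6 of 27. With 50 added and above the 40th percentile, the shares over all probe sets are those given for the Zfp genes. The share was 17.5% with plain probe sets only, 19.4% without replicate 1 and 19.4% without replicate 3. These too are shares of probe sets and not of genes. Of 17 forkhead and SOX genes 9 were called above and 5 below, against 27.6% and 22.2% of all genes, and 6 were called above with 50 added. Among design-C-only genes, 2 of 13 RING and TRIM ubiquitin ligases, 3 of 9 F-box genes and 1 of 5 ubiquitin-specific proteases were called above. The share of all design-C-only genes was 23.1%. Rnf213, a giant ubiquitin ligase known from a disease of brain arteries, gave 389, 259 and 282, with replicate 1 highest. The F-box gene Fbxl16 gave 412, 268 and 354, and Usp54, of the ubiquitin-specific protease family, was called above on both probe sets.

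RIKEN-named genes lay lower. Of 377 design-C-only RIKEN-named genes 51 (13.5%) were called above and 107 below, with a median position of 42.0. Of 199 Gm-named gene models 36 (18.1%) were called above and 42 below, with a median of 49.2 against 49.7 for all design-C-only genes. The 1662 design-C-only genes with other names were called above in 429 cases (25.8%) and below in 357, with a median of 51.6. Genes named Ccdc for a coiled coil also lay low, with 3 of 30 design-C-only members (10%) called above and 9 below, and a median position of 37.7. Of 4 odorant and vomeronasal receptors, which serve as receptors of the nose, 1 (25%) was called above, near the 23.1% of all design-C-only genes. This was Olfr288 at 338, 189 and 263 on a marked probe set.

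The lowest design-C-only genes were all measured by _r_at probe sets. Gm6590 gave 0.440, 0.790 and 2.37 at position 0.143 ± 0.198, the lncRNA Gm36243 2.71, 1.87 and 2.44, and Tbx22, a T-box factor of the palate, 2.65, 2.12 and 2.5. Such values are at the bottom of the scale, and their order carries no information. The widest spreads between arrays among design-C-only genes over position 60 were those of Gm2449 (174, 52.9 and 105), Tnmd (216, 69.9 and 112), 5530401A14Rik (50.9, 31.6 and 72.0), Tex55 (136, 306 and 259.8) and Mast4 (387, 190.4 and 219.7). Replicate 2 was lowest in all of these except Tex55, where replicate 1 was lowest. Tnmd, tenomodulin, a membrane protein of tendon, was called above at a limma adjusted p of 0.0364, which rose to 0.0824 without replicate 1 and 0.0788 without replicate 3. Gm2449 and 5530401A14Rik were not called.

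How far a position on design C stands for a gene can be seen in the genes also on another design. The positions of 2051 genes on designs C and A correlated with Pearson's r = 0.067 (Spearman's coefficient 0.064), and those of 2290 genes on designs C and B with r = 0.166 (Spearman's coefficient 0.166). With plain probe sets only the values were 0.072 over 1108 genes and 0.134 over 1373. The points share the condition, and different arrays and probes stand behind them. Designs A and B, over 2123 genes, gave 0.098. Within a design, pairs of probe sets of a gene gave r = 0.179 on design C (1059 genes), 0.142 on A (1675 genes) and 0.118 on B (1601 genes). Genes over the 95th percentile on design A had a median position of 55.3 on design C (83 genes), and those over the 95th on design B 62.0 (92 genes), against 52.1 for all genes.

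**Figure D5:**
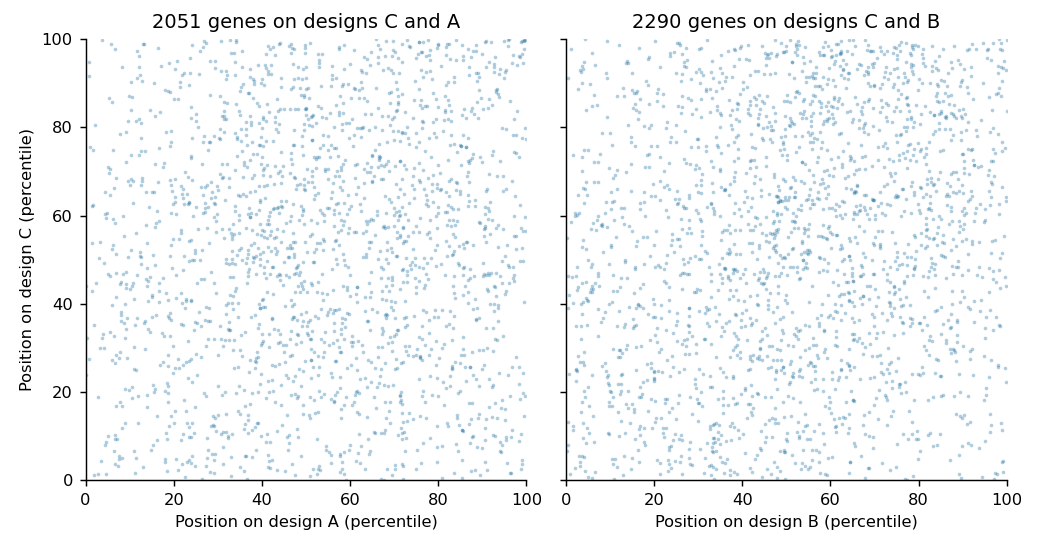
Position on design C (percentile, vertical axis) against position on design A (left, 2051 genes) and design B (right, 2290 genes), 1 point per gene. The points fill the whole square in both panels, with Pearson's r of 0.067 and 0.166.

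The 10 highest genes of design C that are also on another design show both outcomes. Flt1 and Col4a2, whose product is a chain of the collagen of basement membranes, were high on each design they are on, Col4a2 at 99.4 on design A. Sod1, the cytosolic superoxide dismutase, had a position of 99.6 on design A but of 32.0 on design B. Gm1070 (3467, 3779 and 3516 on design C) lay at 4.33 on design B and the calcium-binding protein gene S100a16 at 3.78 on design A. Between these were Nfkbia (84.0), Mvd (77.8) and the protease gene Mbtps1 (65.8) on design A, and Tmem248 (67.8) and Grb14 (64.2) on design B. All but Flt1 rest on marked probe sets on design C.

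Large gaps remained between plain probe sets. On design C, Ilf2 lay at 97.9 ± 0.68 against 6.68 ± 2.65 on design A, the regulatory kinase subunit Pik3r1 at 98.8 against 13.2, and protein kinase C delta (Prkcd) at 97.7 against 11.1. Against design B, Msantd4 lay at 93.0 and 3.09, and the malate dehydrogenase gene Mdh1 at 90.1 and 2.43. In the other direction, Gapvd1 lay at 0.302 on design C and 96.2 on B, Pard6g at 1.64 and 97.2, and Tmed5 at 4.16 and 99.0, while Eif2s3x lay at 1.56 on C and 93.5 on A and the tropomyosin gene Tpm1 at 10.4 and 98.7. The SDs over 3 arrays were at most 3.46 points in these 10 genes, which were chosen for the largest gaps. Gapvd1, Eif2s3x and Mdh1 each also have a marked probe set on design C, at 76.8, 70.8 and 30.2. Over all their probe sets they lay at 38.6, 36.2 and 60.1 there, and Prkcd at 41.9 on design A. On the remaining design, Pik3r1 lay at 61.3 and Tpm1 at 40.2 (both B), and Mdh1 at 34.7 (A). For a design-C-only gene no other design gives such a second reading.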

How the data were processed

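Biotin-labelled RNA of sorted cells, amplified before labelling per the labels' protocols, was hybridised to 3 arrays of each MG-U74v2 design. The values the authors deposited are linear intensities, with a table of its own for every design. How probes were summarised and scaled was not given in the sources used here, and detection calls were not used. The number of arrays limits the precision.

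Gene names came from the annotation of the platform, and of 7717 probe sets with 1 symbol on design C, 7677 were matched to RefSeq (GRCm38.p6) by Entrez identifier. Genes on design A or B, alone or among several symbols, were not counted as design-C-only. Intensities were set as log2 values minus the array median (1 value of 0 took the smallest positive value of its array) and tested with limma 3.58.1 in R 4.3.3 by treat with a margin of 1 log2 unit, an intercept only and Benjamini-Hochberg adjustment over 11868 probe sets. On simulated arrays, where 11868 probe sets were drawn and most were set at the median, 98% of those set 2.5 log2 units above it were called. The real probe sets are spread more widely, and this rate does not cover weaker signals. Positions were computed in Python 3.11.15 with pandas 2.3.3.

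The genes named are the 30 highest and 3 lowest design-C-only genes, the 10 highest others, up to 3 highest and the lowest of each of 12 marker lists and 30 name families (design-C-only first, not all of them reported here), 5 with the widest log2 range, and 5 with the largest gap between designs in each direction. Other endothelial and mural list members, and genes of bright single probe sets, were named after their values were seen. The members and lists were chosen with earlier results of these data known. Alternatives were an offset of 50, quantile normalisation, filters on dim and on marked probe sets, no margin, a variance trend, other ways to combine probe sets, and leaving out each replicate. With either filter, calls were made against the median of the probe sets kept.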

Additional observations from a re-analysis of the deposited data

How the results depend on the processing

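Adding 50 to each intensity gave 1122 probe sets above the array median, 0 below and 230 design-C-only genes above, and keeping probe sets over the 40th percentile of every array gave 1127, 2 and 230. Plain probe sets alone gave 1313, 1080 and 328 of 7488 probe sets tested, and no margin gave 5195, 5191 and 1090. These changes follow from the construction of each alternative, namely compressed low values, fewer probe sets or a lower bar. Quantile normalisation (2488, 2234 and 517) and a variance trend (2538, 2200 and 533) stayed within 1.5 times the main counts, as did the 373 design-C-only genes with every probe set called. Without 1 replicate the counts ranged from 2302 to 2415 above, from 2054 to 2101 below and from 477 to 494 design-C-only genes. The median position of design-C-only genes relative to the others, -4.08 points, became -6.05 with the highest probe set of each gene, -1.35 with plain sets and -2.70 over the 40th percentile, and the cause was not tested. It was -3.96 among named probe sets only and ranged from -4.12 to -3.95 without 1 replicate. Of 217 genes named by rule or list, 30 moved by more than 1 SD with the highest probe set, 14 of 132 with plain sets, and 102 among named probe sets only, there by at most 2.71 points. No paired analysis was possible because all arrays share 1 condition, and positions were set against those on designs A and B as a description with no test. Position depends on the probes as well as on the transcript, dim probe sets may lie at background, which no detection call marks here, and 3 arrays of unstated origin do not give the spread between animals.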
